A study of Homo sapiens with 8 samples.

Results

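The miR-17-92 cluster is a run of 6 miRNA hairpins on chromosome 13 that are cut from a single primary transcript, the host gene MIR17HG. A hairpin gives 2 mature miRNAs, of which the strand usually loaded into the silencing complex is called the guide and the other the passenger. Bases 2 to 8 of the loaded strand, its seed, pair with target mRNAs, so that miRNAs with the same seed share most of their targets. The cluster, also called oncomir-1, is known for driving proliferation in lymphoid and lung tumors. MYC and E2F factors are known to activate it, and its best known targets include the pro-apoptotic gene BCL2L11, CDKN1A and E2F1. The 10 mature miRNAs described here were chosen by name, as the guides and passengers of this locus, and are 10 of the 945 miRNA features in the deposited tables. Of these, 6 are guides (hsa-miR-17-5p, hsa-miR-18a-5p, hsa-miR-19a-3p, hsa-miR-20a-5p, hsa-miR-19b-3p and hsa-miR-92a-3p) and 4 are passengers (hsa-miR-17-3p, hsa-miR-18a-3p, hsa-miR-20a-3p and hsa-miR-92a-1-5p). The species prefix is left out below.

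The miRNAs were measured by small RNA sequencing in H1299, an established p53-null non-small cell lung carcinoma line. H1299/EV cells carry an empty vector, and H1299/R273H cells stably express the p53 mutant R273H from a pCMV vector. Both lines were left untreated or were given etoposide, a topoisomerase II inhibitor that breaks DNA, for 24 h, which gives 4 groups with 2 libraries each. The labels state the etoposide dose as 10 µM in one field and as 10 mM in another. The R273H line comes from colonies selected with G418. The EV line was made elsewhere, by infection, and given by another laboratory, so the effect of the mutant protein and that of line history cannot be told apart. In bulk RNA, fewer cells expressing a miRNA and less of it per cell cannot be told apart. The study calls the replicates biological, but no label ties the 2 of a group to separate cultures, and p-values may therefore measure only the spread between these libraries.

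The libraries held between 234545 and 579367 reads on annotated features. Between 30.6% and 44.5% of the miRNA reads in a library were from miR-21-5p. Levels are given below as reads per 1000000 miRNA reads in a library (RPM), computed from the reads recovered from the deposited values. Differences are computed from the deposited normalized counts, which are reads divided by a size factor per library. miRNAs typical of other cell types were rare in both lines. The summed level of 6 blood cell miRNAs, of which 4 had any reads, was 30.4 to 117 RPM in the EV libraries and 25.7 to 51.6 RPM in the R273H libraries. The liver miRNA miR-122-5p reached at most 32.9 RPM in EV and 13.3 RPM in R273H, and 4 muscle miRNAs, 2 of them with reads, together at most 4.69 RPM and 49.2 RPM. Of the epithelial miRNAs, 6 of 6 had reads (the miR-200 family and miR-205-5p), but their sum was only 7.45 to 28.0 RPM in EV and 3.95 to 44.3 RPM in R273H.

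The mature sequences show how the guides fall into 4 seed families and why reads of some members cannot be assigned to this locus alone. They were taken from RefSeq (GRCh38.p14), which held all 10 miRNAs, and are written 5′ to 3′ with the seed in capitals. The first group has the seed of the miR-17 family, and miR-106a-5p of the related cluster on chromosome X is shown beside it.
miR-17-5p: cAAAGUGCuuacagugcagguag
miR-20a-5p: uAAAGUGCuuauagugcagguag
miR-106a-5p: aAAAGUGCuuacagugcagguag
The remaining guides carry the seeds of the miR-18, miR-19 and miR-92 families.
miR-18a-5p: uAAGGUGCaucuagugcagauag
miR-19a-3p: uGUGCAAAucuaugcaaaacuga
miR-19b-3p: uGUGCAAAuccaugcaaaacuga
miR-92a-3p: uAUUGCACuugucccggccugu
The passengers have seeds of their own, shown because miR-20a-3p was called in untreated cells and miR-17-3p is set against its guide.
miR-17-3p: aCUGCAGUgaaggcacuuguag
miR-18a-3p: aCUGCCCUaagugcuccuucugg
miR-20a-3p: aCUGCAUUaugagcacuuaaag
miR-92a-1-5p: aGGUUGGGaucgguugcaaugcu

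With positions counted from 1 at the 5′ end, miR-17-5p and miR-20a-5p differ by C1U and C12U, and miR-19a-3p and miR-19b-3p by U11C. miR-106a-5p differs from miR-17-5p only by C1A, at the first base, and miR-18b-5p differs from miR-18a-5p only by A20U. Reads that lack or misread such a base can be counted under either name, and the split between these pairs is uncertain.

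Matched to GRCh37, the build of the study, the hairpins lie on the plus strand of chromosome 13 in the order MIR17 (92002859 to 92002942), MIR18A (92003005 to 92003075), MIR19A (92003145 to 92003226), MIR20A (92003319 to 92003389), MIR19B1 (92003446 to 92003532) and MIR92A1 (92003568 to 92003645). They span 787 bases inside MIR17HG (91999940 to 92049846, GENCODE 44). Of its 16 annotated transcripts, the hairpins are exonic in 3 and intronic in 8. Both miR-19b-3p and miR-92a-3p have a second gene on the minus strand of chromosome X, MIR19B2 (133303701 to 133303796) and MIR92A2 (133303568 to 133303642), with the same mature sequence. The passenger arms, which differ between the copies, were counted almost only for chromosome 13. Over the 8 libraries, miR-19b-1-5p, the passenger arm of MIR19B1, had 30 to 152 reads per library, while miR-19b-2-5p of MIR19B2 had 0 to 2. For MIR92A1 the passenger miR-92a-1-5p had 4 to 16 reads, and miR-92a-2-5p of MIR92A2 had 0 in every library. The reads of the 2 guides were not divided between the copies.

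The cluster contributed more of the miRNA reads in R273H than in EV, both with and without etoposide. In untreated EV cells its 10 miRNAs took 3.37% and 3.75% of the miRNA reads, and in etoposide-treated EV cells 3.44% and 3.01%. In untreated R273H cells they took 6.69% and 5.50%, and with etoposide 5.82% and 6.68%. The 4 R273H libraries were therefore all above the 4 EV libraries, a description with no test. The means were 3.56% ± 0.27 and 6.09% ± 0.85 without etoposide (SD, n = 2), and 3.22% ± 0.30 and 6.25% ± 0.61 with it. When the reads of miR-21-5p were left out of the total, the means were 6.06% and 10.4% without etoposide and 5.30% and 9.46% with it.

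The levels within the cluster were very unequal although the hairpins share a transcript. The miR-19 guides were at the top: miR-19b-3p had 18000 and 20547 RPM in untreated EV cells, and miR-19a-3p had 5656 and 6185 RPM. miR-18a-5p, with 5715 and 5912 RPM, overlapped miR-19a-3p. miR-17-5p followed with 1399 and 1397 RPM. miR-20a-5p (1088 and 1281 RPM) and miR-92a-3p (1277 and 1053 RPM) overlapped each other below it. Among the passengers only miR-17-3p was of the same order as a guide, with 508 and 1013 RPM. miR-92a-1-5p rested on 12 and 10 reads and miR-20a-3p on 7 and 6, and their levels overlapped. miR-18a-3p was at 0 in 7 of 8 libraries. It had 2 reads in a single etoposide-treated R273H library, at 5.73 RPM, below the 8.60 RPM that 3 reads are worth there. In the other 7 libraries a count of 0 allows a level of at most 5.59 to 14.1 RPM, depending on the library. Such limits cover counting error only. Levels of different miRNAs are compared here as reads, with no correction for how well each sequence is captured in a library.

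In R273H miR-18a-5p stood higher in the order. In untreated R273H cells miR-18a-5p had 24069 and 12131 RPM, and overlapped miR-19b-3p with 25629 and 23552 RPM at the top. miR-19a-3p was below both, with 9048 and 11101 RPM. miR-17-5p (3172 and 3083 RPM) and miR-20a-5p (3335 and 2670 RPM) overlapped each other and were above miR-92a-3p (1158 and 1497 RPM). The passengers followed in the order miR-17-3p (443 and 787 RPM), miR-20a-3p (59.8 and 101 RPM) and miR-92a-1-5p (15.5 and 39.3 RPM). As a share of the cluster's reads, miR-19b-3p made up 54.2% in untreated EV and 40.6% in untreated R273H, and miR-18a-5p 16.4% and 29.0%. With etoposide the shares were 51.7% and 38.0% for miR-19b-3p, and 13.9% and 26.3% for miR-18a-5p.

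**Figure D1:**
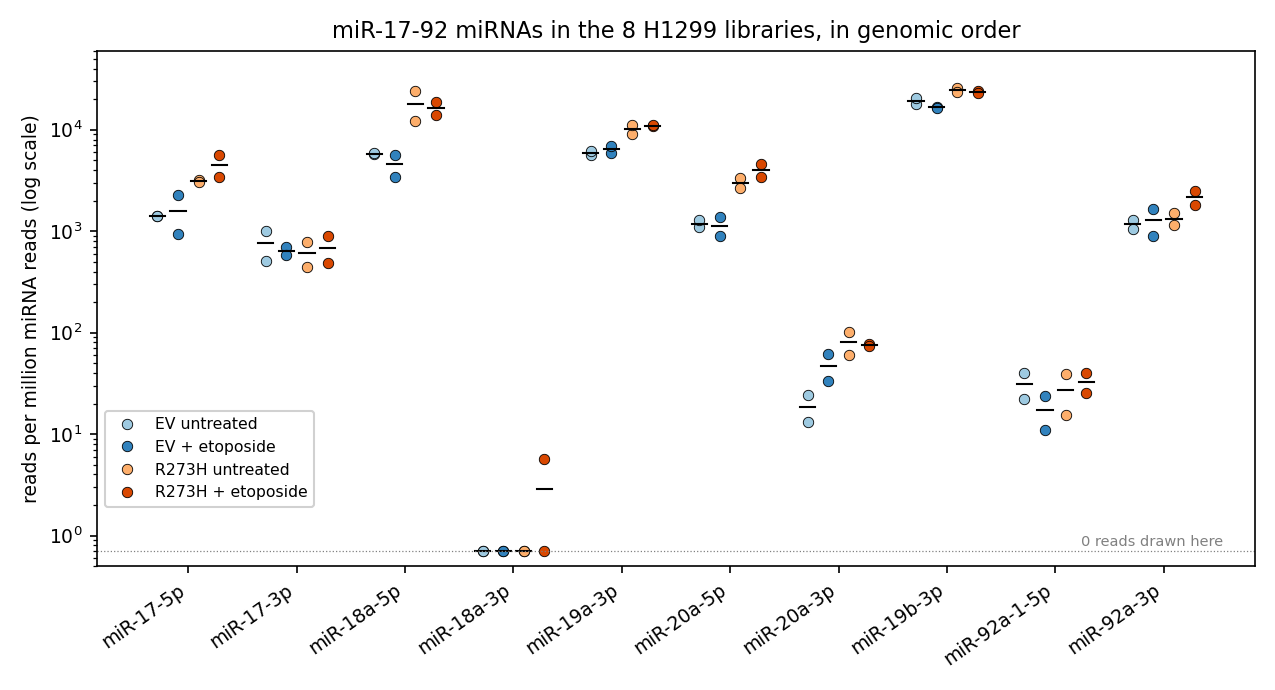
Levels of the 10 miR-17-92 miRNAs in each of the 8 libraries, in RPM on a log axis; points are libraries, bars the means of 2, and 0 reads are drawn on the dotted line. For miR-17-5p, miR-18a-5p, miR-19a-3p, miR-20a-5p and miR-19b-3p the 4 R273H points lie above the 4 EV points, while miR-17-3p, miR-20a-3p, miR-92a-3p and miR-92a-1-5p overlap between the lines. The share of all miRNAs whose points separate in this way was not computed.

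The first comparison concerned miRNAs that differ between untreated R273H and EV cells. Of the 10 cluster miRNAs, 9 passed the filter (at least 3 normalized counts on average), all except miR-18a-3p. A miRNA was called at an unadjusted p under 0.05 with a 2-fold or larger change in limma, fitted on log2(normalized count + 1), a scale that understates the change of low miRNAs. In R273H 4 of the 9 rose, miR-17-5p, miR-18a-5p, miR-20a-5p and miR-20a-3p, and none was called lower. Among all 304 miRNAs tested 27.3% were called, 16.4% as higher. In this fit 50 miRNAs were called higher and 33 lower, but edgeR called 34 and 43, and DESeq2 26 and 33. At a Benjamini-Hochberg adjusted p under 0.05, 5 of the 9 passed in limma, against 20.4% of all miRNAs, the fifth being miR-19a-3p. The same 5 had an unadjusted p under 0.05, against 32.6% of all. The median log2 fold change was 0.85 for the 9 and 0.10 for all 304 miRNAs.

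miR-18a-5p, a guide known to target the estrogen receptor gene ESR1 among others, had 2125 and 2354 normalized counts in EV. In R273H it had 11158 and 4385 normalized counts. Both R273H libraries were higher, and they differed from each other by 2.54-fold, while the median miRNA with at least 100 normalized counts differed by 1.30-fold between them. The difference was 1.64 on the log2 scale (standard error, SE, 0.34, 95% interval 0.94 to 2.35, adjusted p = 0.0029, limma). Without R273H replicate 1 it was 0.97, just under 2-fold, with adjusted p = 0.15 in limma, and 3 of the 9 were called. Without R273H replicate 2 it was 2.32 (adjusted p = 0.062, limma), and with either of these libraries left out none of the 9 had an adjusted p under 0.05.

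miR-17-5p and miR-20a-5p, which share a seed and repress E2F1 and CDKN1A, were both higher in R273H. The normalized counts of miR-17-5p were 520 and 556 in EV and 1470 and 1115 in R273H. The difference was 1.25 on the log2 scale (SE 0.29, 95% interval 0.65 to 1.85, adjusted p = 0.0052, limma). miR-20a-5p had 404 and 510 normalized counts in EV and 1546 and 965 in R273H. This is a log2 difference of 1.43 (SE 0.31, 95% interval 0.78 to 2.07, adjusted p = 0.0034, limma). In these normalized counts every R273H library was above every EV library for both miRNAs. The same held for miR-19a-3p, miR-19b-3p and miR-92a-3p, which were not called. In RPM the libraries of miR-92a-3p overlapped, with 1277 and 1053 in EV and 1158 and 1497 in R273H. With 2 libraries against 2 the smallest exact permutation p is 0.33, and the share of all miRNAs without overlap was not computed. In limma without trend the adjusted p was 0.068 for miR-17-5p, 0.060 for miR-20a-5p and 0.069 for miR-18a-5p.

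The miR-19 guides, which are known as the main oncogenic part of the cluster in lymphoma models, had smaller log2 differences. miR-19a-3p had 2103 and 2462 normalized counts in EV and 4195 and 4013 in R273H, without overlap. The log2 difference of 0.85 (SE 0.26, 95% interval 0.30 to 1.40, adjusted p = 0.027, limma) was below 2-fold. In edgeR, DESeq2 and limma without its trend the adjusted p of miR-19a-3p was 0.078, 0.054 and 0.16, and over all alternatives it ranged from 0.019 to 0.20. miR-19b-3p had 6692 and 8181 normalized counts in EV and 11882 and 8514 in R273H. Its log2 fold change was 0.44 with a 95% interval of -0.11 to 0.99 (adjusted p = 0.24, limma). miR-92a-3p, the last guide of the cluster, had 475 and 419 normalized counts in EV and 537 and 541 in R273H, with a log2 fold change of 0.27 and an interval of -0.34 to 0.89 (adjusted p = 0.56, limma). Reads of both miR-19b-3p and miR-92a-3p can also come from chromosome X.

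Among the passengers, miR-20a-3p was higher in R273H but rested on few reads. Its 7 and 6 reads in EV stood against 27 and 41 in R273H, or 4.85 and 9.56 against 27.7 and 36.4 normalized counts. The log2 difference was 2.06 (SE 0.51, 95% interval 1.00 to 3.12, adjusted p = 0.0076, limma). miR-17-3p had 189 and 403 normalized counts in EV and 205 and 284 in R273H, so that both R273H libraries lay between the EV libraries, which differed from each other by 2.13-fold. The log2 difference was -0.19, with an interval of -0.96 to 0.57. miR-92a-1-5p had 8.31 and 15.9 normalized counts in EV and 7.18 and 14.2 in R273H, with a log2 fold change of -0.17 and an interval of -1.33 to 0.98. The sign of miR-17-3p and of miR-92a-1-5p changed when single libraries were left out. Of the 2 arms of the locus that are not among the 10, miR-19b-1-5p had 67.8 and 47.8 normalized counts in EV, against 69.8 and 135 in R273H (0.76 on the log2 scale, adjusted p = 0.19, limma), and miR-19a-5p had at most 4 reads in any library.

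The same comparison in etoposide-treated cells gave 3 of these miRNAs again. Since it spans tables that were normalized separately, it was tested with edgeR on the recovered reads of all 8 libraries. Of the 9 cluster miRNAs tested, 3 were called, each higher in R273H, against 25.4% of all 334 miRNAs called and 10.2% called higher. The same 3 had an adjusted p under 0.05, against 22.5% of all and 8.08% that were higher, and 32% of all had an unadjusted p under 0.05. miR-18a-5p had 5685 and 3401 RPM in EV and 14102 and 18936 RPM in R273H. The log2 difference was 1.55 (SE 0.38, adjusted p = 0.00095, edgeR). miR-20a-5p had 1366 and 903 RPM in EV and 3452 and 4543 RPM in R273H, a log2 difference of 1.49 (SE 0.34, 95% interval 0.82 to 2.17, adjusted p = 0.00046, edgeR). miR-17-5p had 2253 and 933 RPM in EV and 3403 and 5636 RPM in R273H, a log2 difference of 1.23 (SE 0.34, 95% interval 0.55 to 1.90, adjusted p = 0.0048, edgeR). The levels of all 3 did not overlap between the lines. Neither did those of miR-19a-3p, miR-19b-3p, miR-20a-3p, miR-92a-3p and miR-92a-1-5p, which were not called. With 2 libraries against 2 the smallest exact permutation p is 0.33, and the share of all miRNAs without overlap was not computed. Without EV etoposide replicate 2 the value of miR-17-5p was 0.96 (adjusted p = 0.12, edgeR), and 2 of the 9 were called.

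The others were not called with etoposide. The log2 fold changes of miR-19a-3p and miR-19b-3p were 0.39 (95% interval -0.33 to 1.10) and 0.17 (-0.60 to 0.93). That of miR-92a-3p was 0.46 (-0.20 to 1.11). For miR-20a-3p, 13 and 12 reads in EV stood against 39 and 26 in R273H, a log2 difference of 0.44 (-0.57 to 1.45). miR-17-3p was at -0.30 (-0.96 to 0.36) and miR-92a-1-5p at 0.63 (-0.75 to 2.01). The median of the 9 was 0.46, and that of all 334 miRNAs 0.05. The untreated and the etoposide comparison contrast different libraries of the same lines, so line history is shared between them. The etoposide test also took its spread and scaling from all 8 libraries, the untreated ones included, so the 2 are not fully separate.

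**Figure D2:**
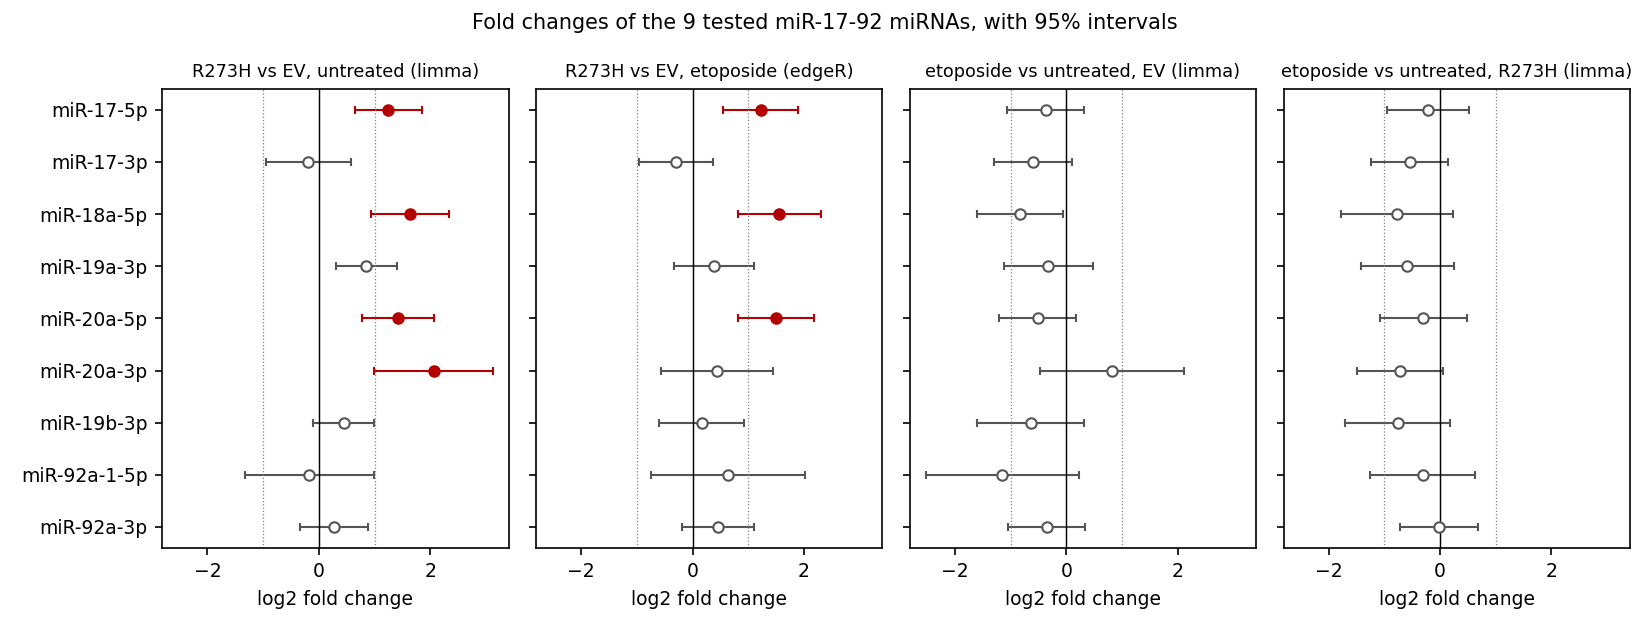
Log2 fold changes of the 9 tested miR-17-92 miRNAs with 95% intervals in 4 comparisons; filled red points met p under 0.05 and 2-fold, dotted lines mark 2-fold. The red points are 4 miRNAs in untreated and 3 in etoposide-treated R273H cells against EV, and none in the etoposide comparisons on the right, whose position moves with the scaling of the libraries.

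The second question was whether etoposide alters the cluster in either line, and 0 of 9 miRNAs were called in either. In EV 6.76% of the 296 miRNAs tested were called (2.36% higher, 4.39% lower), and in R273H 6.16% of 341 (2.93% higher, 3.23% lower). An adjusted p under 0.05 was reached by 0.676% of all in EV and by none in R273H. In EV 1 of the 9 had an unadjusted p under 0.05, against 8.11% of all, and in R273H 0 of 9, against 9.09%; DESeq2 and edgeR also called 0 of the 9 in each line. In EV 8 of the 9 log2 fold changes were below 0, with a median of -0.51 (all miRNAs -0.03), and in R273H 9 of 9 were, with a median of -0.55 (all miRNAs 0.02). These signs depend on the scaling. When the libraries were scaled to RPM instead, the median of all miRNAs shifted by 0.42 in EV and by 0.70 in R273H, and several cluster miRNAs then came out above 0, as given in the closing section. On that scale the medians of the 9 were -0.09 in EV and 0.16 in R273H, beside 0.38 and 0.72 for all miRNAs, and again 0 of the 9 were called. The calls over all miRNAs were then 10 higher and 2 lower in EV, against 7 and 13 with the deposited scaling, and 36 higher and 0 lower in R273H, against 10 and 11.

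miR-18a-5p had the smallest p-value among the cluster miRNAs in EV. It had 1979 and 2236 normalized counts untreated and 1155 and 1212 with etoposide, without overlap, for a log2 fold change of -0.83 (95% interval -1.60 to -0.06, adjusted p = 0.54, limma). In R273H the same miRNA had 14459 and 5826 normalized counts untreated and 5891 and 4904 with etoposide, which overlap, for a log2 fold change of -0.77 (-1.78 to 0.24, adjusted p = 0.63, limma). miR-17-5p had 484 and 528 normalized counts in untreated EV cells and 458 and 333 with etoposide. In R273H it had 1905 and 1481 untreated and 1421 and 1460 with etoposide. Its log2 fold changes were -0.37 (-1.07 to 0.32) and -0.22 (-0.96 to 0.52). miR-20a-5p moved by -0.51 (-1.21 to 0.18) in EV and by -0.30 (-1.08 to 0.48) in R273H on the log2 scale, neither past the test.

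miR-19b-3p had 6234 and 7770 normalized counts in untreated EV cells and 3401 and 5861 with etoposide. In R273H the values were 15397 and 11312 untreated and 10070 and 6005 with etoposide. With this scaling the libraries did not overlap in either line. In RPM those of R273H did, with 25629 and 23552 untreated and 24106 and 23184 with etoposide. Over the 10 alternatives the log2 fold change in R273H ran from -0.88 to -0.056. The log2 fold changes of -0.64 (-1.60 to 0.32) in EV and -0.76 (-1.70 to 0.17) in R273H did not pass the test (adjusted p = 0.90 and 0.58, limma). Without R273H etoposide replicate 1 the latter became -1.14 (adjusted p = 0.0033, limma) and was called, and without EV etoposide replicate 2 the former became -1.03 (adjusted p = 0.49, limma) and was called at its unadjusted p. miR-19a-3p was at -0.32 (-1.11 to 0.47) in EV and -0.59 (-1.42 to 0.25) in R273H, and miR-92a-3p at -0.35 (-1.05 to 0.34) and -0.02 (-0.71 to 0.68). The passengers miR-17-3p and miR-92a-1-5p were at -0.60 (-1.30 to 0.10) and -1.15 (-2.53 to 0.22) in EV, and at -0.55 (-1.25 to 0.15) and -0.31 (-1.25 to 0.63) in R273H. Without EV untreated replicate 1, miR-17-3p was called in EV at its unadjusted p, at -1.16 (adjusted p = 0.61, limma).

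With the deposited scaling, miR-20a-3p was the only cluster miRNA whose etoposide values pointed in opposite directions in the 2 lines. In EV its reads were 7 and 6 untreated and 13 and 12 with etoposide (log2 fold change 0.81, -0.48 to 2.11). In R273H the reads were 27 and 41 untreated and 39 and 26 with etoposide (log2 fold change -0.72, -1.49 to 0.05). The difference between the lines in the etoposide response, tested in edgeR as an interaction, was -1.66 for miR-20a-3p (SE 0.78, unadjusted p = 0.033, adjusted p = 1.00, edgeR), while 3.59% of all 334 miRNAs were called by p and fold, 2.69% in this direction, and none reached an adjusted p under 0.05. DESeq2 gave an unadjusted p of 0.067. The other 8 differences lay between -0.28 and 0.86, with unadjusted p between 0.36 and 0.93 in edgeR.

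Where both strands have reads, their ratio within a library does not depend on how libraries are scaled. For each hairpin with both strands among the 10, log2((guide reads + 1)/(passenger reads + 1)) was compared between the 4 EV and the 4 R273H libraries by an exact two-sided permutation test, adjusted over 4 hairpins. With 4 libraries against 4 the smallest possible p is 0.029. The 4 libraries of a line include both treatments, and the test regroups all 8 libraries without regard to treatment. Regrouping within each treatment, whose smallest possible p is larger, was not run. The ratio of miR-17-5p to miR-17-3p reads was 2.75 and 1.38 in untreated EV cells, 3.22 and 1.62 with etoposide, 7.17 and 3.92 in untreated R273H cells, and 7.01 and 6.32 with etoposide. The R273H libraries were all above the EV libraries. The log2 ratios averaged 1.07 ± 0.59 in EV against 2.57 ± 0.41 in R273H (SD, n = 4, exact permutation p = 0.029, adjusted p = 0.11). The difference is at the smallest p this test allows. Over 4 hairpins that p cannot pass the adjustment unless other hairpins reach it too, so the adjusted p cannot decide for 1 hairpin alone.

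The other 2 hairpins with reads on both strands did not reach that p, and their libraries overlapped. For miR-20a the log2 ratios averaged 5.19 ± 0.83 in EV against 5.44 ± 0.53 in R273H (SD, n = 4, exact permutation p = 0.71). For miR-92a, whose guide can also come from chromosome X, the averages were 5.55 ± 0.66 and 5.77 ± 0.41 (SD, n = 4, exact permutation p = 0.57). For miR-18a, with the passenger at 0 in 7 of 8 libraries, the value is little more than the guide's read number and moves with library depth. It was tested (exact permutation p = 0.057) and is 1 of the 4 in the adjustment, but no result is read from it. None of the 4 hairpins had an adjusted p under 0.05, which would take most of the 4 at the smallest possible p.

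All 15 pairs of the 6 guides were compared in the same way, a choice made after the values were seen, and 0 passed the adjustment. The EV and R273H libraries did not overlap for 7 pairs, each at the smallest possible p of 0.029 (exact permutation test, adjusted p = 0.061 over 15 pairs). That p cannot pass the adjustment when 7 of the 15 pairs reach it, so the adjusted p cannot decide for these pairs. The share of all miRNA pairs without overlap was not computed. Each of the 7 sets a guide called in both comparisons against one not called, in the same libraries. They therefore repeat those calls and are not independent of each other. In these pairs the mean log2 ratio in R273H minus that in EV was 1.29 for miR-18a-5p to miR-19b-3p, 1.23 for miR-18a-5p to miR-92a-3p and 0.96 for miR-18a-5p to miR-19a-3p. It was 1.15 for miR-20a-5p to miR-19b-3p, 1.09 for miR-20a-5p to miR-92a-3p, 0.89 for miR-17-5p to miR-92a-3p and -0.82 for miR-19a-3p to miR-20a-5p. Among the 3 guides called in both comparisons, the same value was -0.35 for miR-17-5p to miR-18a-5p, -0.21 for miR-17-5p to miR-20a-5p and 0.14 for miR-18a-5p to miR-20a-5p. These 3 were grouped by their calls, so the size of these values is given as a description. The ratio of miR-19b-3p to miR-92a-3p, the guides with a second gene on chromosome X, differed by -0.06 (exact permutation p = 0.89).

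**Figure D3:**
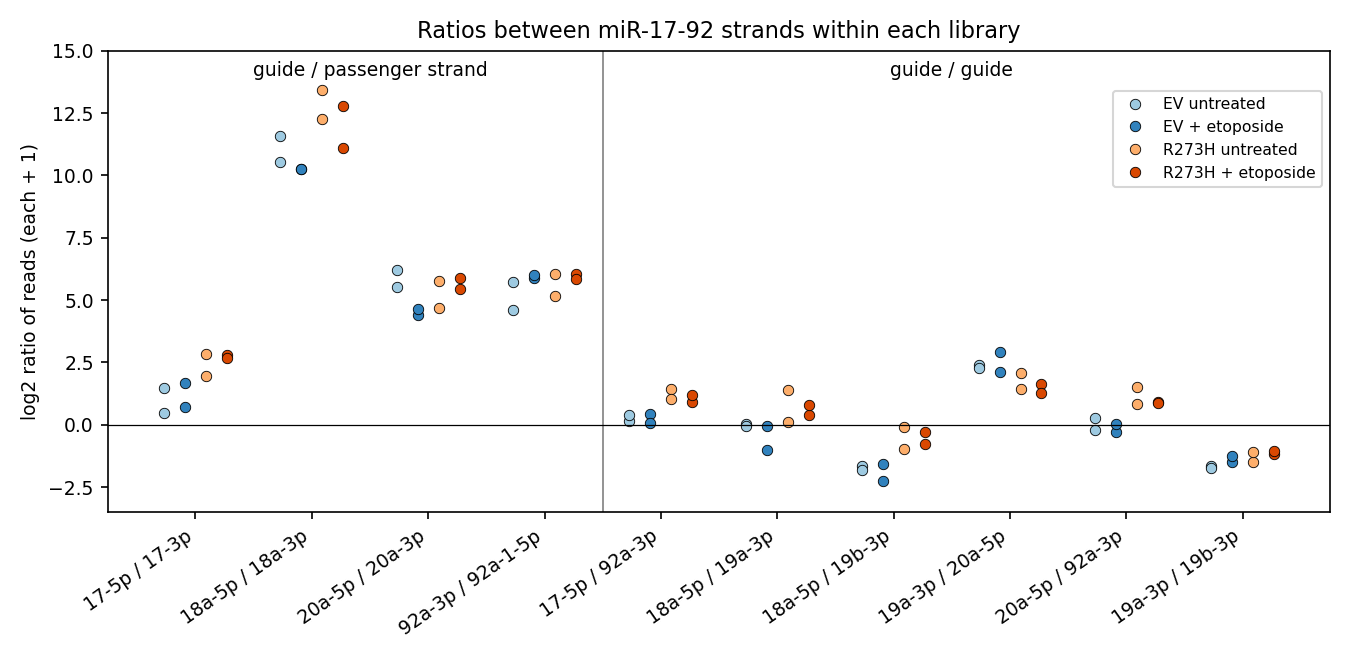
Log2 ratios of reads (each + 1) between miR-17-92 strands within each of the 8 libraries; on the left guide over passenger for 4 hairpins, of which miR-18a moves with depth since its passenger is mostly at 0, on the right 6 of the 15 pairs of guides. The ratio of miR-17-5p to miR-17-3p is higher in the 4 R273H libraries than in the 4 EV libraries, as are those of miR-17-5p and miR-20a-5p to miR-92a-3p and of miR-18a-5p to both miR-19 guides, while that of miR-19a-3p to miR-20a-5p is lower.

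Because miRNAs with a common seed bind largely the same targets, the cluster's reads were set against those of its seed families. The miR-17 family seed is carried by 6 miRNAs of the tables, and most of its reads came from elsewhere. miR-106b-5p (9613 and 10844 RPM in untreated EV) and miR-93-5p (8689 and 8622 RPM), both from the miR-106b-25 cluster in MCM7 on chromosome 7, were far above miR-17-5p and miR-20a-5p. The 2 cluster guides gave 11.9% and 12.1% of the family's reads in untreated EV cells and 21.7% and 17.3% in untreated R273H cells. With etoposide the shares were 12.3% and 7.40% in EV and 14.9% and 20.5% in R273H. The family as a whole had 20812 and 22160 RPM in untreated EV and 30007 and 33330 RPM in untreated R273H. With etoposide it had 29525 and 24793 RPM in EV and 45855 and 49582 RPM in R273H.

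The other families were supplied differently. miR-18a-5p made up at least 99.8% of the miR-18 family in every library, since miR-18b-5p had only 1 to 5 reads. The miR-19 family consists of miR-19a-3p and miR-19b-3p alone, and was 23656 and 26732 RPM in untreated EV and 34677 and 34653 RPM in untreated R273H. With etoposide it was 22638 and 23324 RPM in EV and 34878 and 34223 RPM in R273H, again higher in the R273H libraries. In the miR-92 family miR-92a-3p shared the reads with miR-25-3p, miR-32-5p, miR-363-3p and miR-92b-3p. Its share was 45.6% and 43.8% in untreated EV and 47.8% and 48.8% in untreated R273H, and 37.9% and 34.2% against 45.2% and 43.7% with etoposide.

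Of the 19 listed miRNAs of the paralogous clusters miR-106b-25 and miR-106a-363 and of the same seed elsewhere, 11 were tested in untreated cells. Of these, 1 was called higher in R273H, against 16.4% of all miRNAs, and 1 lower, against 10.9%. Their median log2 fold change was 0.14. The higher one was miR-106a-5p, with 6.92 and 1.59 normalized counts in EV but 56.4 and 11.6 in R273H (a log2 difference of 2.57, adjusted p = 0.012, limma). With etoposide, miR-106a-5p was again higher in R273H (log2 fold change 1.99, adjusted p = 0.023, edgeR). Its reads, 10, 1, 6 and 1 in EV and 55, 13, 44 and 10 in R273H, were few beside the 338 to 1966 of miR-17-5p, from which it differs at the first base, and how many of them came from miR-17-5p was not tested. The lower one was miR-25-5p, a passenger, at -1.49 (adjusted p = 0.067, limma). In R273H the same miRNA was higher with etoposide (1.16, unadjusted p = 0.031, adjusted p = 0.49, limma). The guides of miR-106b-25 were not called. In untreated cells miR-106b-5p had a log2 fold change of 0.53 (95% interval -0.01 to 1.07, unadjusted p = 0.053, adjusted p = 0.16, limma), with 3574 and 4318 normalized counts in EV and 5565 and 5782 in R273H, without overlap. miR-93-5p was at 0.49 (-0.05 to 1.04) and miR-25-3p at 0.14 (-0.50 to 0.77).

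Outside the cluster, the miRNAs whose levels over the 8 libraries (log2) were most like those of the 4 guides encoded only here (miR-17-5p, miR-18a-5p, miR-19a-3p and miR-20a-5p) were miR-32-3p, miR-590-3p, miR-10a-3p, miR-29c-3p and miR-128-3p. Pearson's r with the mean of the 4 standardized guides was 0.94, 0.94, 0.93, 0.92 and 0.89, the highest of 228 miRNAs with at least 10 reads on average. The libraries share a line and a treatment by design, and these values describe 8 libraries in 2 lines only. On the same measure r was 0.89 for miR-19b-3p, 0.77 for miR-20a-3p, 0.70 for miR-92a-3p, 0.40 for miR-92a-1-5p and -0.02 for miR-17-3p.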

How the data were processed

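The 8 small RNA libraries are those of the EV and R273H lines of H1299, with and without etoposide. Per the study's methods, the authors quality-trimmed the reads with FASTX-toolkit, used SHRiMP on miRBase and Novoalign on hg19, and applied DESeq, which the submitters' processing notes also name. Versions of these tools are not given in the sources used here. The deposited signal is a normalized count, that is, reads over the library's size factor, in 3 tables that were each normalized on their own. The authors' own fold changes and p-values, in further deposited tables, were not used. All deposited values (100%, tolerance 0.005) were whole multiples of 1 read, so the reads were recovered, 234545 to 579367 per library. Limits from a count of 0 cover counting error only.

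Comparisons within a table used limma 3.58.1 (R 4.3.3, trend) on the log2 scale after adding 1, kept miRNAs averaging at least 3 normalized counts, and were adjusted over all miRNAs tested. R273H against EV with etoposide and the difference of the responses used the quasi-likelihood test of edgeR 4.0.16 on all 8 libraries. Ratios used exact permutation tests (scipy 1.17.1). Alternatives were other pseudocounts (0.5 and 5), no filter or a mean of at least 10, equal upper quartiles, limma without trend, edgeR, DESeq2 1.42.0, a replicate block, and each library left out. Scaling to RPM, the total without miR-21-5p and the 15 guide pairs were added after the data were seen. Scripts were tested on simulated data. All 10 members were named whatever they showed, with called paralogs and the 5 most similar miRNAs. The members and lists were chosen with earlier results of these data known.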

Additional observations from a re-analysis of the deposited data

Results flagged for a closer look

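The etoposide response of miR-20a-3p differed between the lines by -1.66 on the log2 scale (R273H minus EV), at an unadjusted p of 0.033 and an adjusted p of 1.00 in edgeR, and was selected because this test of the difference itself had an unadjusted p under 0.05. Both EV values were higher with etoposide than without (13 and 12 reads against 7 and 6), while the R273H reads overlapped. It was 1 of 9 cluster miRNAs tested in this way. Without EV untreated replicate 1 the value was -1.14, and without R273H untreated replicate 2 or R273H etoposide replicate 2 it was -1.40 and -1.32, each with an unadjusted p above 0.05 in edgeR. The part of low read numbers in this value was not tested.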

How the results depend on the processing

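Untreated, R273H against EV: 4 cluster miRNAs were called under all 10 alternatives and 3 to 4 with 1 library left out. The number at an adjusted p under 0.05, 5, fell to 1 in limma without trend and to 0 with the replicate block, and was 0 to 5 with 1 library left out. It was 0 with either R273H library left out and 3 without EV replicate 1. Same-numbered libraries did not deviate together (r of deviations -0.03, 0.04 and -0.08 in the 3 tables), so the numbers were not taken as pairs. With the replicate block, 4 miRNAs were still called in untreated cells and 3 with etoposide. All miRNAs called ranged from 52 to 78 with 1 library left out and rose to 112 without the filter.

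Etoposide in EV: 1 cluster miRNA (miR-92a-1-5p) was called in limma without trend, and 0 to 1 with 1 library left out. All miRNAs called, 20, became 13 with pseudocount 5, 10 at a mean of at least 10, 12 in DESeq2, 12 in RPM, and 9 to 19 with 1 library left out. Etoposide in R273H: 0 to 1 cluster miRNA was called with 1 library left out, and 0 to 1 at an adjusted p. All called, 21, became 11, 10, 10 and 36 under the same 4 alternatives, 33 without the filter, and 9 to 32 with 1 library left out. Difference of the responses: 0 cluster miRNAs, not 1, were called in DESeq2, and 0 to 1 with 1 library left out. All called, 12, became 32 without the filter, 6 at a mean of at least 10, 5 in DESeq2, and 10 to 28 with 1 library left out.

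In RPM the etoposide values above 0 were, in EV, 0.053 for miR-17-5p, 0.11 for miR-19a-3p, 0.072 for miR-92a-3p and 0.054 for miR-19b-1-5p, and in R273H, 0.49 for miR-17-5p, 0.16 for miR-17-3p, 0.12 for miR-19a-3p, 0.41 for miR-20a-5p, 0.69 for miR-92a-3p and 0.36 for miR-92a-1-5p. All miRNAs shifted by 0.42 and 0.70 there. The cause of the other changes was not tested.

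Signs also turned with 1 library left out. Untreated, miR-17-3p ranged from -0.74 to 0.35 and miR-92a-1-5p from -0.62 to 0.28. For etoposide in EV, miR-19a-3p ranged from -0.84 to 0.20. In R273H, miR-20a-5p ranged from -0.62 to 0.023, miR-92a-3p from -0.14 to 0.10 and miR-92a-1-5p from -0.78 to 0.16. With etoposide, R273H against EV, miR-19a-3p ranged from -0.018 to 0.92, miR-19b-3p from -0.16 to 0.54 and miR-19b-1-5p from -0.081 to 0.36. The guide to passenger difference ranged from -0.013 to 0.59 for miR-20a and from -0.11 to 0.42 for miR-92a.

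The median of all miRNAs in untreated cells shifted by -0.19 in edgeR and -0.11 in DESeq2, with no sign of a cluster miRNA changed. Without miR-21-5p in the total, the cluster's share was 6.06% and 5.30% in EV and 10.4% and 9.46% in R273H, untreated and with etoposide. With 2 libraries a group, low passengers (4 to 41 reads) limit what can be seen.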
